A study of Homo sapiens with 24 samples.

Results

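The genes described here encode the nuclear parts of respiratory complexes II to V, with cytochrome c and the assembly factors that share their symbols. They were chosen by symbol from the RefSeq annotation of hg38: protein-coding nuclear genes beginning with UQCR or ATP5, genes named COX followed by a number, and SDHA, SDHB, SDHC, SDHD, SDHAF1, SDHAF2, SDHAF3, SDHAF4, CYC1 and CYCS. The rule gave 65 of 20037 protein-coding genes on chromosomes 1 to 22, X and Y. It includes ATP5MF-PTCD1, a readthrough that shares its upper end with ATP5MF, so that a peak there counts for both. Myc was mapped with CUT&Tag: an antibody guides a transposase to cut and tag nearby DNA, and fragments pile up into peaks where the factor sits. The material was MIA PaCa-2, a human pancreatic carcinoma cell line. In both libraries the cells carried a doxycycline-inducible (tet-on) MED30 construct, MED30 being a subunit of the Mediator complex. The control was grown without doxycycline. The other had doxycycline to induce MED30, for 5 days by its title, while the protocol shared by all samples speaks of 2. The series asks how gain and loss of MED30 bear on where other factors bind, and the libraries used here belong to the gain. It has 24 samples, of which these 2 were used through their peak lists. With 1 library per condition, no difference between them has a replicate check and no test was made. The labels do not say whether the line is a clone. Myc peaks do not measure the amount of MED30 or of any RNA, so neither the induction nor the cell type was checked here.

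Complexes III and IV pass electrons from ubiquinol through cytochrome c to oxygen and pump protons across the inner mitochondrial membrane. Complex II feeds electrons in from succinate and is also an enzyme of the citric acid cycle. Complex V, the ATP synthase, uses the proton gradient to make ATP. Complex II is wholly nuclear-encoded, whereas the other complexes combine nuclear subunits with a few made from mitochondrial DNA. Myc is a transcription factor that binds DNA with its partner Max, preferring the E-box CACGTG, and is known to act on many genes of mitochondrial biogenesis. Textbook regulators of nuclear respiratory genes also include NRF1 and GABP.

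The lists held 3472 peaks without doxycycline and 6727 at day 5 on these chromosomes. Fragments over each summit were recovered from the deposited values. Their median was 11 without doxycycline and 12 at day 5, and 42.2% and 34.8% of peaks had fewer than 10. The total number of reads is unknown here. IgG libraries were not analysed here, and peaks shared with IgG are therefore still included. A gene described as without a peak had no peak past the authors' threshold. Intervals are exact 95% intervals, Clopper-Pearson for shares and Poisson for fragments, and cover counting error only.

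Without doxycycline, 12 of the 65 genes had a Myc peak that reached within 1 kb of either end of the gene span (18.5%, interval 9.92 to 30.0), beside 14.4% of all protein-coding genes. At day 5 the count was 31 (47.7%, 35.1 to 60.5), beside 27.4%. Without doxycycline the share was thus near that of all genes, and at day 5 it lay above it. In both lists were 11 genes (16.9%, beside 12.9% of all genes): UQCR11, UQCRH, COX20, ATP5MC1, ATP5PF, COX17, CYCS, ATP5PB, SDHAF2, SDHD and SDHB. They make up 91.7% of the genes listed without doxycycline and 35.5% of those at day 5, beside 89.1% and 47.0% over all coding genes. Listed only at day 5 were 20 genes (30.8%, beside 14.5%), and only without doxycycline 1, COX14 (1.54%, beside 1.57%). When as many day 5 peaks were taken, from the top rank down, as the list without doxycycline holds, 18 genes had one (27.7%, beside 15.7%). No list was compared with other genes by a test.

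**Figure D1:**
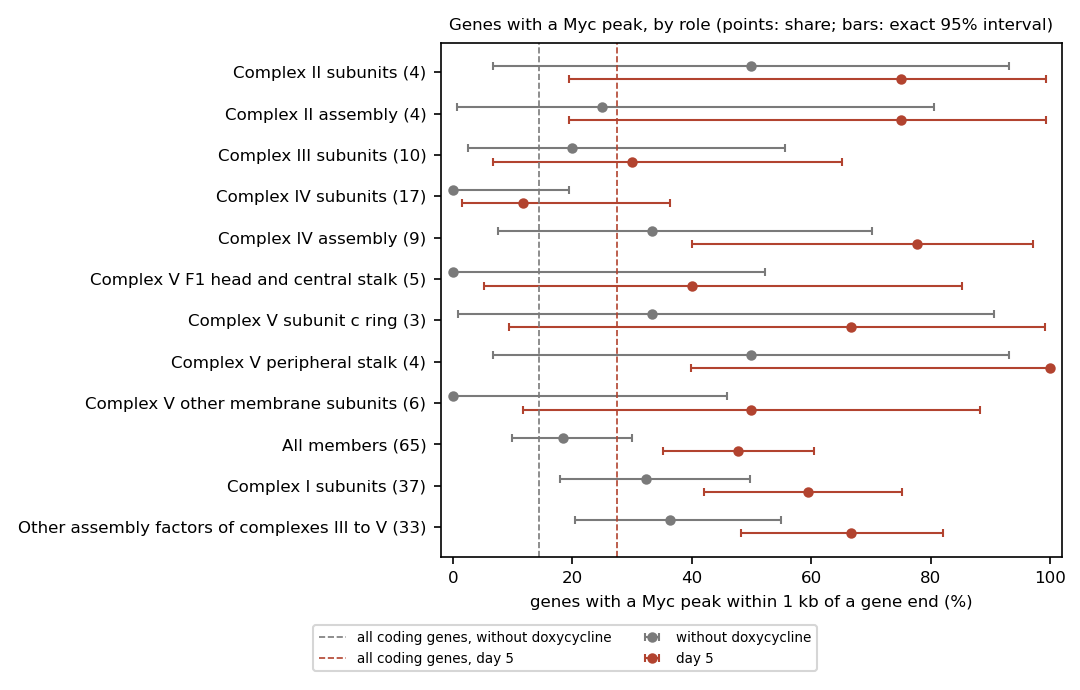
Share of genes with a Myc peak within 1 kb of a gene end (x axis, %), by role (y axis, number of genes in brackets), without doxycycline (grey) and at day 5 (red). Points are shares, bars exact 95% intervals, and dashed lines the shares of all protein-coding genes (14.4% and 27.4%). The 17 subunits of complex IV lie to the left of both lines, at 0% and 11.8%, with intervals that include the line of the same library.

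Counts by role follow, with no test between roles. The shares of all coding genes to set beside them are 14.4% without doxycycline and 27.4% at day 5. The 17 nuclear subunits of complex IV had 0 peaks without doxycycline (interval up to 19.5%) and 2 at day 5 (11.8%, 1.46 to 36.4). These intervals include the shares of all coding genes. Counted among the 17 are COX7A2L and 6 isoforms made mainly in particular tissues. The 9 assembly factors of the same complex had 3 and 7 (33.3%, 7.49 to 70.1, and 77.8%, 40.0 to 97.2). Of the 8 genes of complex II, 3 and then 6 had a peak. Of the 10 subunits of complex III, 2 and then 3 did. Of the 19 genes of complex V, its inhibitor included, 3 and then 11 did. These groups are small, and 1 gene moves a share by many percentage points.

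Complex II, succinate dehydrogenase, has 4 subunits, and 3 of them were listed at day 5, all low in the ranking. SDHB, the iron-sulfur subunit, had 6 fragments over the summit in each library (interval 2.2 to 13.1). Its peaks lay at chr1:17053810-17054298 without doxycycline and chr1:17053853-17054313 at day 5, 489 and 461 bp wide, with summits 79 and 101 bp past the annotated start. The deposited fold over local background was 5.2 and 4.68, and the deposited −log10 q 3.53 and 2.91. SDHD, a membrane anchor, had 7 (2.81 to 14.4) and 8 (3.45 to 15.8) fragments, with −log10 q of 3.2 and 3.59. Its peaks, chr11:112086353-112086778 and chr11:112086134-112086760, were 426 and 627 bp wide with folds of 5.04 and 5.03. Their summits lay 229 and 336 bp upstream of its start, nearer to the neighbouring TIMM8B, a gene of mitochondrial import, at 112 and 219 bp. SDHC, the other anchor, was listed only at day 5, at chr1:161314430-161314932 (503 bp wide). With 5 fragments (1.62 to 11.7), a fold of 3.67 and a −log10 q of 1.44, its peak ranked in the last percent of the list. SDHA, the flavoprotein that oxidises succinate, was in neither list, its nearest peak being 207 kb away without doxycycline and 2.57 kb away at day 5.

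The assembly factors of complex II gave peaks of like size. SDHAF2, which attaches the flavin to SDHA, had 6 (2.2 to 13.1) and 11 (5.49 to 19.7) fragments in peaks upstream of its start. The 2 summits were 393 bp apart, and both lay nearest an end of CPSF7, a factor of mRNA 3′-end formation, at 26 and 419 bp. SDHAF1, which helps to insert iron-sulfur clusters into SDHB, was listed only at day 5 with 8 fragments (3.45 to 15.8). Its peak, chr19:35995191-35995617, was 427 bp wide with a fold of 5.24, a −log10 q of 3.88 and its summit 314 bp past the start. SDHAF3, another factor for SDHB, was also listed only at day 5, with 7 fragments (2.81 to 14.4) at chr7:97117426-97117986, a width of 561 bp, a fold of 5.54 and a −log10 q of 4.29. Its summit lay 140 bp past the start. SDHAF4, which acts on flavinated SDHA, had no peak, the nearest at day 5 being 69.4 kb away. With equal numbers of peaks, SDHAF2 alone of the complex II genes was still listed at day 5, the other 5 having weaker peaks. That is 12.5% of the 8 genes, beside 15.7% of all coding genes in that setting.

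Complex III, the cytochrome bc1 complex, held the strongest peak of all 65 genes. UQCR11, a small subunit, had 44 fragments without doxycycline (32.0 to 59.1) and 38 at day 5 (26.9 to 52.2). The peaks, chr19:1605562-1606122 and chr19:1605431-1606216, were 561 and 786 bp wide. Their deposited folds were 11.9 and 9.55 and their −log10 q 31.9 and 23.8, which put them in the top 1.53% and 3.76% of the lists. Both summits lay upstream of the annotated start, by 355 and 414 bp, and no other coding gene ended within 1 kb of the peaks. UQCRH, the hinge subunit that contacts cytochrome c1, came next at day 5 with 19 (11.4 to 29.7) and 32 (21.9 to 45.2) fragments and −log10 q of 11.2 and 20.1. Its peaks, chr1:46303285-46303755 and chr1:46303243-46303919, were 471 and 677 bp wide with folds of 8.05 and 9.29. Their summits were 188 and 154 bp upstream of its start and nearer still to LRRC41, a leucine-rich repeat protein, at 106 and 72 bp.

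Over its 10 subunits complex III had shares of 20.0% and 30.0%, near the 14.4% and 27.4% of all coding genes. UQCRC2, a core protein, was listed only at day 5 with 14 fragments (7.65 to 23.5) at chr16:21952562-21953302. That peak was 741 bp wide, with a fold of 7.4, a −log10 q of 8.6 and its summit 270 bp upstream of the start. Neither UQCRC1, the other core protein, nor the catalytic subunits CYC1 (cytochrome c1) and UQCRFS1 (the Rieske iron-sulfur protein) had a peak in either list. The nearest to CYC1 lay 142 kb away without doxycycline and 6.36 kb away at day 5, and the nearest to UQCRFS1 631 and 502 kb away. UQCRB, UQCRQ, UQCR10 and UQCRHL, an intronless copy of UQCRH, had none either.

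CYCS, cytochrome c itself, which carries electrons from complex III to complex IV and also takes part in apoptosis, had a peak in both libraries. It had 13 fragments without doxycycline (6.92 to 22.2) and 21 at day 5 (13.0 to 32.1), with folds of 7.25 and 8.78 and −log10 q of 7.71 and 13.6. The peaks, chr7:25125162-25125738 and chr7:25125059-25125733, were 577 and 675 bp wide, with summits 186 and 62 bp upstream of the start. CYCS was the nearest coding gene in both.

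Complex IV, cytochrome c oxidase, had 2 of its 17 nuclear subunits in the day 5 list (11.8%, beside 27.4% of all coding genes). COX4I1, the widely made form of subunit 4, was listed only at day 5, with 13 fragments (6.92 to 22.2) at chr16:85799139-85799609. The peak was 471 bp wide with a fold of 7.02 and a −log10 q of 7.71, and its summit, 366 bp upstream of the start, lay nearer to EMC8, a subunit of the ER membrane protein complex, at 215 bp. COX5A, a matrix-side subunit that pairs with subunit 4, was listed only at day 5 with 12 fragments (6.2 to 21.0) at chr15:74937611-74938082. Its peak was 472 bp wide, with a fold of 6.52, a −log10 q of 6.66 and its summit 258 bp past the start. COX5B, COX6C and COX7C had no peak. Of the 6 isoforms made mainly in particular tissues (COX4I2, COX6A2, COX6B2, COX7A1, COX7B2 and COX8C), 0 had a peak in either library, and the nearest peak to COX4I2 was 44.0 and 16.8 kb away. Their widely made counterparts (COX4I1, COX6A1, COX6B1, COX7A2, COX7B and COX8A) had 0 without doxycycline and 1 at day 5, COX4I1. The lack of a peak was therefore shared by most of both kinds of isoform. It was also shared by most coding genes, of which 14.4% without doxycycline and 27.4% at day 5 had a peak. The intervals of these groups of 6 include those shares.

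COX7A2L, a relative of COX7A2 that joins complexes III and IV into supercomplexes, shows a limit of windows at gene-span ends. It has an annotated start at position 42361217 of chromosome 2, inside its span, and there both libraries had a peak. It had 13 fragments without doxycycline (6.92 to 22.2) and 21 at day 5 (13.0 to 32.1), with deposited folds of 9.44 and 11 and −log10 q of 11.2 and 17.2. The summits lay 78 and 237 bp upstream of that start. When peaks within 1 kb of annotated starts were counted, for genes that have one in the RefSeq promoter table, 14 of the 65 genes had a peak without doxycycline (21.5%, beside 14.7% of all genes) and 33 at day 5 (50.8%, beside 27.9%). Complex IV subunits then had 1 and 3 of 17. Besides COX7A2L, ATP5MC2 at day 5 and ATP5F1A without doxycycline came in this way.

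Among the assembly factors of complex IV, COX17 showed the largest ratio of fragments of the 11 genes in both lists. COX17, the copper chaperone of the complex, had 7 fragments without doxycycline (2.81 to 14.4) and 23 at day 5 (14.6 to 34.5). That is a ratio of 3.29 (exact conditional interval 1.36 to 9.07), beside a median of 1.43 over all 2580 coding genes in both lists. Its peaks, chr3:119677184-119677551 and chr3:119677005-119677551, were 368 and 547 bp wide, with folds of 5.27 and 12 and −log10 q of 3.55 and 19.8, placing it in the top 74.5% of the shorter list and the top 5.84% of the longer. The summit lay 74 bp past the outermost start without doxycycline. At day 5 it lay 137 bp further into the gene, 211 bp past that start. It was then nearer to a second, inner start, 192 bp upstream of it. COX20, a chaperone of the mitochondrially encoded subunit 2, had the widest peaks of the 65 genes, chr1:244834513-244835895 and chr1:244834275-244835640, at 1383 and 1366 bp. It had 21 (13.0 to 32.1) and 29 (19.4 to 41.6) fragments, folds of 5.85 and 5.47 and −log10 q of 8.39 and 10.8, with summits 52 and 58 bp past an annotated start. For COX20 the fragment interval at day 5 overlapped that without doxycycline, and for COX17 the intervals did not overlap.

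COX14, an early assembly factor for the mitochondrially encoded subunit 1, was the gene listed only without doxycycline. Its peak, chr12:50112155-50112641, was 487 bp wide with 8 fragments (3.45 to 15.8), a fold of 4.83 and a −log10 q of 3.02, and its summit lay 218 bp past the start. At day 5 the nearest peak was 1250 bp away, outside the window of 1 kb, so COX14 leaves this class when the window is 2500 bp. COX15, which makes heme A, had 15 fragments (8.4 to 24.7) at day 5 in a peak of 914 bp at chr10:99731909-99732822, with a fold of 6.95 and a −log10 q of 8.29. Its summit, 399 bp upstream of the start, lay 292 bp from CUTC, a copper-handling protein, which was nearer. COX10, which acts before COX15 in making heme A, had 8 fragments (3.45 to 15.8) at chr17:14069251-14069770, a width of 520 bp, a fold of 5.57 and a −log10 q of 4.38, with the summit 65 bp past the start. Both enzymes of heme A synthesis were thus listed only at day 5, as were 14.5% of all coding genes. With equal numbers of peaks COX15 was still listed and COX10 was not.

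The remaining assembly factors of complex IV at day 5 had small peaks. COX11, which delivers copper to subunit 1, had 7 fragments (2.81 to 14.4) at chr17:54968154-54968752. That peak was 599 bp wide with a fold of 5.06 and a −log10 q of 3.51, and its summit lay 322 bp from the end of COX11 and 302 bp from that of STXBP4. COX18, which inserts subunit 2 into the membrane, had 11 fragments (5.49 to 19.7) at chr4:73069500-73070034, a width of 535 bp, a fold of 5.82 and a −log10 q of 5.36, with the summit 16 bp past a start. COX19, a copper-pathway protein of the intermembrane space, had 8 fragments (3.45 to 15.8) at chr7:974976-975551, a width of 576 bp, a fold of 5.88 and a −log10 q of 4.87, with the summit 420 bp past the start. COX16, which acts on subunit 2, had no peak, the nearest at day 5 being 557 kb away. With equal numbers of peaks, 3 of the 9 assembly factors were listed at day 5 (COX15, COX17 and COX20), as many as the 3 without doxycycline. That is 33.3% (7.49 to 70.1), beside 15.7% of all coding genes in that setting.

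In complex V the genes of the peripheral stalk, the stator that holds the head of the enzyme, were all listed at day 5, 4 of 4, after 2 of 4 without doxycycline. The intervals were 39.8 to 100% and 6.76 to 93.2%, beside 27.4% and 14.4% of all coding genes. With equal numbers of peaks, 2 of the 4 were listed at day 5, ATP5PF and ATP5PB (interval 6.76 to 93.2%, beside 15.7% of all coding genes). ATP5PF, the coupling factor 6 subunit, had 25 (16.2 to 36.9) and 24 (15.4 to 35.7) fragments. Its peaks, chr21:25735028-25735605 and chr21:25734634-25735605, were 578 and 972 bp wide with folds of 10.0 and 7.67 and −log10 q of 17.3 and 13.2. Their summits lay 110 and 45 bp upstream of an annotated start, and the nearest coding gene end was that of GABPA, at 192 and 127 bp. GABPA encodes the DNA-binding subunit of GABP, and the peak is not assigned to 1 of these 2 genes. ATP5PB, the stalk's main membrane-bound subunit, had 10 (4.8 to 18.4) and 16 (9.15 to 26.0) fragments. Its peaks, chr1:111448993-111449660 and chr1:111448672-111449699, were 668 and 1028 bp wide with folds of 6.19 and 8.53 and −log10 q of 5.33 and 11. Their summits, 343 and 359 bp upstream of its start, lay nearer WDR77, a partner of the arginine methyltransferase PRMT5, at 135 and 151 bp. ATP5PD had 7 fragments (2.81 to 14.4) only at day 5, at chr17:75046557-75047011, 455 bp wide, with a fold of 5.35, a −log10 q of 3.97 and the summit 206 bp past the start. ATP5PO, the subunit that confers oligomycin sensitivity, had 5 (1.62 to 11.7) only at day 5, at chr21:33915834-33916367, 534 bp wide, with a fold of 4.47, a −log10 q of 2.7 and the summit 60 bp upstream of the start.

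Subunit c, which forms the rotating ring in the membrane, is made from 3 genes whose mature proteins are identical, and the genes differed in their peaks. ATP5MC1 had a peak in both lists, with 12 fragments without doxycycline (6.2 to 21.0) and 27 at day 5 (17.8 to 39.3), a ratio of 2.25 (1.1 to 4.88). The peaks, chr17:48892461-48893059 and chr17:48892384-48893015, were 599 and 632 bp wide, with folds of 5.98 and 8.77, −log10 q of 5.55 and 16.5 and summits 20 and 201 bp upstream of the start. ATP5MC3 was listed only at day 5, at chr2:175181114-175181715 (602 bp), with 8 fragments (3.45 to 15.8), a fold of 6.23, a −log10 q of 5.45 and its summit 304 bp inside the gene's upper end. ATP5MC2 had no peak at either end of its span. At day 5, however, a peak at chr12:53675784-53676263 covered an annotated start inside the span, with 17 fragments (9.9 to 27.2), a fold of 9.7, a −log10 q of 13.3 and its summit 11 bp past that start. By annotated starts or span ends, then, all 3 genes had a peak at day 5 and ATP5MC1 alone had one without doxycycline.

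The catalytic head of complex V and its central stalk are made from 5 nuclear genes. Of these, 0 had a peak at a span end without doxycycline (interval up to 52.2%, beside 14.4% of all genes) and 2 at day 5 (40.0%, 5.27 to 85.3, beside 27.4%). ATP5F1A, the alpha subunit, had 9 fragments at day 5 (4.12 to 17.1) at chr18:46104345-46104726, 382 bp wide, with a fold of 6.12 and a −log10 q of 5.36. Its summit lay 417 bp upstream of the start at the span's end and 259 bp from HAUS1, a microtubule factor, which was nearer. Without doxycycline a peak with 9 fragments (4.12 to 17.1) had its summit 204 bp past a second annotated start, at position 46098296. Inner starts were looked up only in a library without a peak at the span ends, so that start was not examined at day 5. ATP5F1E, the epsilon subunit, had 9 fragments (4.12 to 17.1) at day 5 at chr20:59032154-59032609, 456 bp wide, with a fold of 6.53, a −log10 q of 6.02 and the summit 141 bp upstream of the start. ATP5F1B, the beta subunit that carries the catalytic sites, had its nearest peaks 1.31 and 1.32 kb away, just outside the window. ATP5F1C and ATP5F1D had none nearer than 558 and 30.3 kb.

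Of the 6 other membrane subunits of complex V, 0 had a peak without doxycycline (interval up to 45.9%, beside 14.4% of all genes). At day 5, 3 had one (50.0%, 11.8 to 88.2, beside 27.4%). ATP5MK, a small subunit, had the highest-ranked peak of all 20 genes listed only at day 5, with 15 fragments (8.4 to 24.7) at chr10:103396356-103397059, 704 bp wide, a fold of 7.39 and a −log10 q of 8.95. Its summit, 176 bp upstream of the start, lay 25 bp from PDCD11, a ribosome biogenesis factor. ATP5MF and its readthrough share a peak at chr7:99465896-99466267, 372 bp wide, with 14 fragments (7.65 to 23.5), a fold of 7.16, a −log10 q of 8.24 and its summit 59 bp from their common upper end. ATP5ME had 11 fragments (5.49 to 19.7) at chr4:674301-674855, 555 bp wide, with a fold of 6.13 and a −log10 q of 5.8. Its summit, 220 bp upstream of the start, lay 46 bp from MYL5, a myosin light chain. ATP5MG, ATP5MJ and ATP5MGL had no peak, and neither had ATP5IF1, the protein that keeps the enzyme from running backwards, whose nearest peak was 132 kb away.

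**Figure D2:**
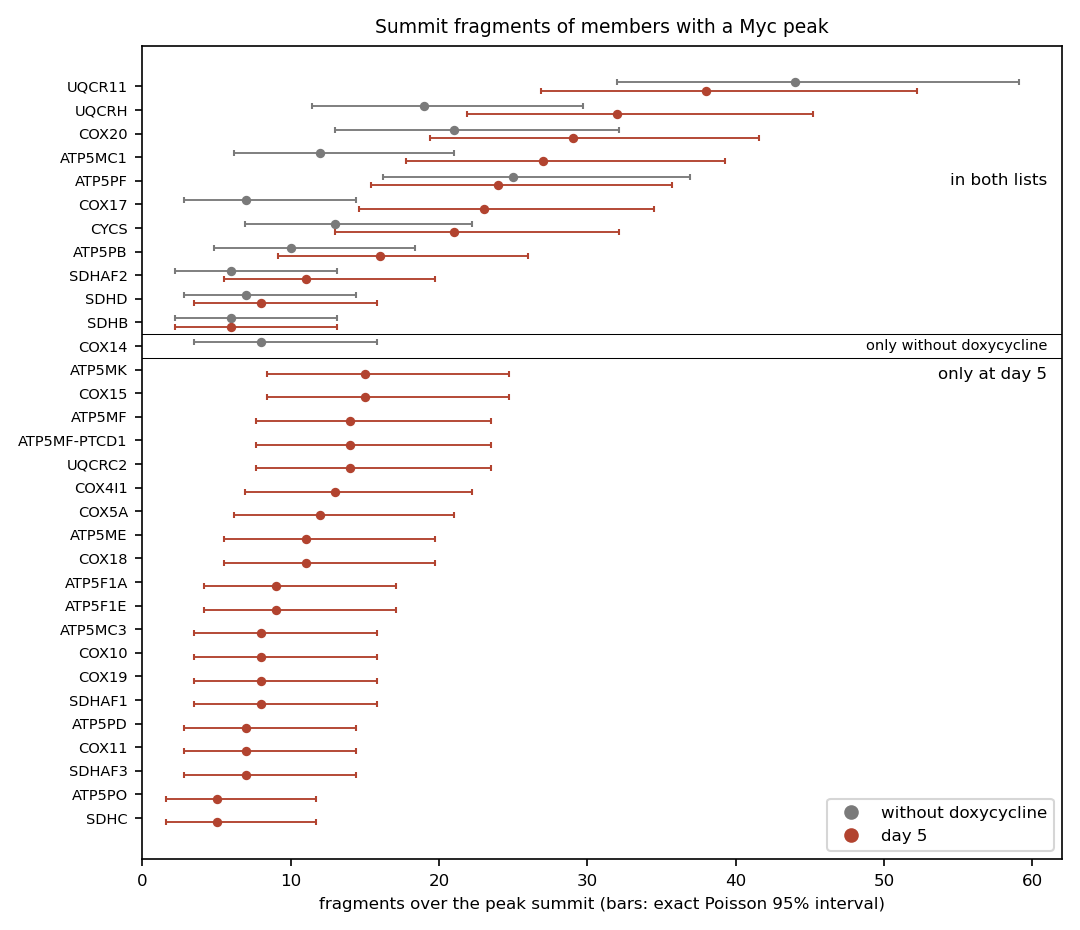
Fragments over the peak summit (x axis) for each of the 32 genes with a Myc peak at a span end (y axis), without doxycycline (grey) and at day 5 (red), grouped by the lists that hold them. Bars are exact Poisson 95% intervals; UQCR11 leads with 44 and 38 fragments, and the genes listed only at day 5 have 5 to 15.

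Over the 11 genes in both lists, the median ratio of summit fragments, day 5 to without doxycycline, was 1.6, beside 1.43 over all 2580 coding genes in both. It was above 1 at 8 genes, equal to 1 at SDHB and below 1 at UQCR11 (0.864, interval 0.544 to 1.36) and ATP5PF (0.96, 0.525 to 1.75). The local background of the peak caller rose along with it, by a median of 1.62 times at these genes and 1.63 times over all genes in both lists. Libraries of unequal depth give such ratios at every site, and depth and binding cannot be told apart here. For COX17 and ATP5MC1 alone of the 11 did the interval of the ratio lie above 1, and for COX17 and ATP5MC1 it also held the all-gene median of 1.43. For the other 9 it included 1.

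At day 5 the ranks of the peaks differed between the genes in both lists and those listed only then, here and over all coding genes. At day 5 the 11 genes in both lists had a median position in the top 14.6% of the list, beside 23.8% for all coding genes in both. Without doxycycline their median was 48.6%, beside 40.8%. The 20 genes listed only at day 5 had a median position of 55.6%, beside 60.2% for all genes listed only then. They had a median of 9 fragments, from 5 to 15, beside a median of 10 for all such genes. The highest-ranked of them, at ATP5MK, stood at 28.2%. The genes listed only at day 5 thus spread from the upper part of the list to its end. With equal numbers of peaks 9 of the 20 were still listed, beside 1116 of the 2906 coding genes listed only then.

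**Figure D3:**
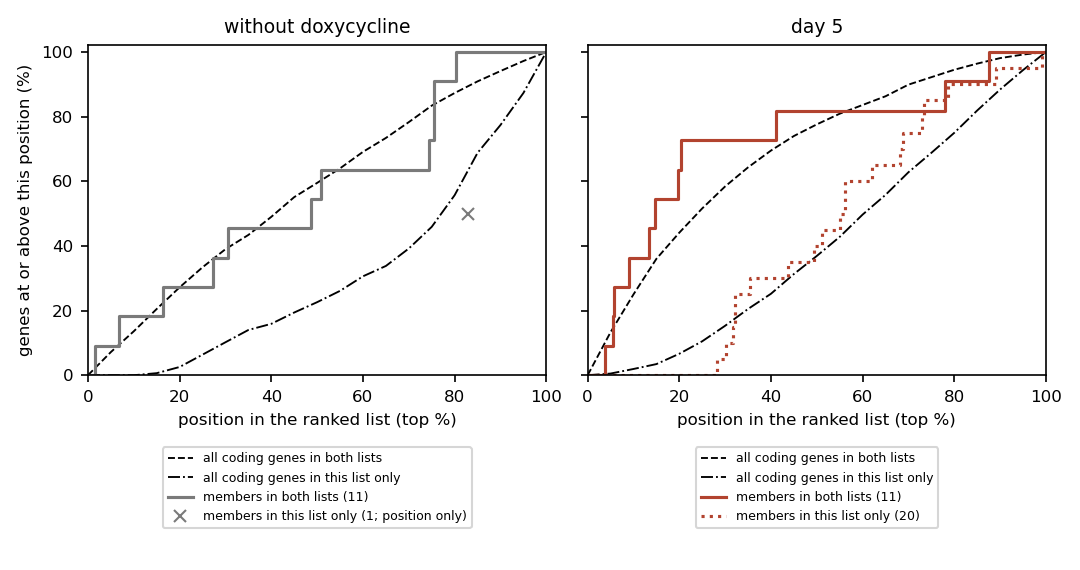
Cumulative share of genes (y axis, %) against the position of their peak in the ranked list (x axis, top %), without doxycycline (left) and at day 5 (right). Coloured lines are the complex II to V genes and black lines all coding genes of the same class; COX14, the gene in the left list only, is marked by a cross whose height carries no value, and at day 5 the 11 genes in both lists have a median at 14.6% and the 20 others at 55.6%.

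All peaks whose gene has an annotated start lay at the start side of the gene, 12 of 12 without doxycycline and 26 of 26 at day 5, beside 94.8% and 95.1% over all coding genes with a peak and a start. The summit was within 500 bp of the start in 12 of 12 and 25 of 26, the exception being SDHAF2, beside 81.2% and 82.0%. It was upstream of the nearest annotated start in 8 of 12 and 17 of 26, beside 58.1% and 55.3%. Several of these starts sit back to back with another gene. At 5 of 12 peaks without doxycycline and 11 of 31 at day 5 the coding gene end nearest to the summit belonged to a neighbour: LRRC41, WDR77, CPSF7, TIMM8B and GABPA in both libraries, and MYL5, CUTC, PDCD11, EMC8, STXBP4 and HAUS1 at day 5. Counted only where the gene's own end was nearest, 7 and 20 genes had a peak. The same counts were not made over all coding genes, so these have no share to be set beside. The window left no close calls inside it: without doxycycline the most distant peak counted was 110 bp from a gene end (SDHAF2) and the nearest one not counted 1314 bp (ATP5F1B), and at day 5 these were 118 bp (ATP5F1A) and 1250 bp (COX14).

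**Figure D4:**
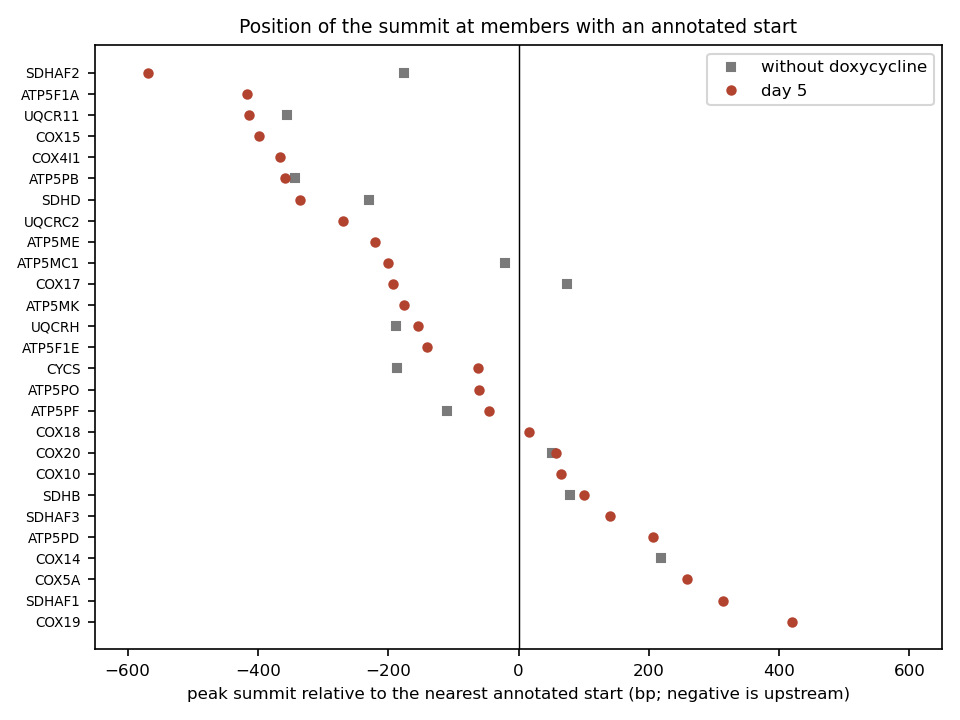
Peak summit relative to the nearest annotated start (x axis, bp, negative upstream) for the 27 genes with a peak at a span end and an annotated start (y axis), without doxycycline (grey squares) and at day 5 (red circles). The summits run from 568 bp upstream (SDHAF2, day 5) to 420 bp downstream (COX19, day 5).

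Promoter windows of 300 bases, 250 before to 50 after the outermost annotated start, were given by RefSeq (GRCh38.p14) for 51 of the 65 genes and 15843 coding genes. They were searched on both strands for 5 motifs. CACGTG, the palindromic E-box, was in 5 of 51 windows (9.8%, beside 8.82% of all windows): UQCR11, ATP5MC1, ATP5PB, ATP5ME and COX14. All 5 of these genes had a peak in at least 1 library, and in each the motif lay inside the peak. Of the 46 windows without it, 22 belonged to genes with a peak (47.8%). Over all coding genes, 46.1% of those with CACGTG and 29.5% of those without had a peak in either list. The stretches that hold it are printed because they cover the strongest peak, at UQCR11, and both single-list cases, ATP5ME at day 5 and COX14 without doxycycline. They run 5′ to 3′ on the gene's own strand. For UQCR11 (chr19:1605463-1605712, minus strand), ATP5ME (chr4:674277-674526, minus strand) and COX14 (chr12:50111986-50112235, plus strand) the 250 bases before the start are given, with matches to any of the 5 motifs in capitals. For ATP5PB (chr1:111449229-111449258, plus strand) and ATP5MC1 (chr17:48892779-48892808, plus strand), whose windows overlap another annotated gene span, 30 bases around CACGTG are given, with that motif in capitals.

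UQCR11: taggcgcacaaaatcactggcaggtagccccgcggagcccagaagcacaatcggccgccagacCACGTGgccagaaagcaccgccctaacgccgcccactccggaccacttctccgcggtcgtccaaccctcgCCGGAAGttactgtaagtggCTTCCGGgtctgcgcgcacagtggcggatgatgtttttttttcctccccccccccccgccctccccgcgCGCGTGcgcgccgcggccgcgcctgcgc
ATP5ME: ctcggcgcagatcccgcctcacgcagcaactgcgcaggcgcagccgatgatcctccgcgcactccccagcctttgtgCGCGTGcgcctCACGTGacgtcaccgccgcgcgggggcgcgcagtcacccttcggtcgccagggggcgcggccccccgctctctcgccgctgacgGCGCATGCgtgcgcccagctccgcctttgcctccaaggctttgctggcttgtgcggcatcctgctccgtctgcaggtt
COX14: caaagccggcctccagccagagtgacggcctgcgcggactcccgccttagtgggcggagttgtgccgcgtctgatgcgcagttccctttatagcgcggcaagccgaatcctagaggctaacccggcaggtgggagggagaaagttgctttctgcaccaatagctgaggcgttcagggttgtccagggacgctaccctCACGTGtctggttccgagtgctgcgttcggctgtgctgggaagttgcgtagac
ATP5PB: ggcagcaaacccCACGTGgtgcacctctga
ATP5MC1: gaaggtccaggaCACGTGggtgggggaagc

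Counted from the annotated start, the first base of CACGTG was at -187 in UQCR11, -162 in ATP5ME, -53 in COX14, -223 in ATP5PB and 5 in ATP5MC1, where positive positions lie past the start. The day 5 summit was 60 bp from the motif's middle at ATP5ME, 139 bp at ATP5PB, 208 bp at ATP5MC1 and 229 bp at UQCR11. Without doxycycline it was 27 bp away at ATP5MC1, 123 bp at ATP5PB, 170 bp at UQCR11 and 268 bp at COX14. A match is a run of letters and not a measured site.

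The other 4 motifs were each found in a larger share of these windows than of all windows, with no test of the difference. CCGGAAG, a core sequence of the ETS family to which GABP belongs, was in 21 of 51 windows (41.2%, beside 14.2%). GCATGCGC, part of the NRF1 consensus, was in 12 (23.5%, beside 4.28%). CACGCG, a variant of the E-box, was in 13 (25.5%, beside 14.9%), and AAGATGGCG, part of the YY1 consensus, in 4 (7.84%, beside 2.69%). Genes with CCGGAAG had a peak at day 5 in 15 of 21 cases and those without in 11 of 30. Over all coding genes these shares were 48.1% and 26.3%. Genes with GCATGCGC had one in 8 of 12 cases and those without in 18 of 39, beside 48.7% and 28.5% over all coding genes. In both comparisons genes with the motif were thus listed more often, here and over all genes, and the same held over all genes for each of the 5 motifs. Complex IV subunits without a peak also held these letters: COX5B, COX6A1, COX6B1 and COX8A have CCGGAAG, and COX5B and COX6A1 GCATGCGC. The letters alone therefore did not separate listed from unlisted genes.

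The promoter of COX17 is printed because COX17 had the largest ratio of fragments while lacking CACGTG. It is the 250 bases before the outermost start, chr3:119677407-119677656 on the minus strand, with CACGCG at -59 and GCATGCGC in both orientations, overlapping, from -116 and -114 in capitals.

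COX17: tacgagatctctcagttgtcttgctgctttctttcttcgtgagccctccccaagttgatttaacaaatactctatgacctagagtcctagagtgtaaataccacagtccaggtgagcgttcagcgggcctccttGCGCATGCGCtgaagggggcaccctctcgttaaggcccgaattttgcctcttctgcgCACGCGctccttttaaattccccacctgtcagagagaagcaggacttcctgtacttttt

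The peak without doxycycline, chr3:119677184-119677551, and that at day 5, chr3:119677005-119677551, both cover these motifs. They also cover CCGGAAG, whose first base is at 11, past the start and so outside the printed stretch. Its middle lay 61 bp from the summit without doxycycline and 198 bp at day 5, nearer than the printed motifs.

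Other genes of the pathway were counted from lists written beside the rule, and the shares of all coding genes to set beside them are 14.4% without doxycycline and 27.4% at day 5. Of 37 subunits of complex I, the NADH dehydrogenase that starts the chain, 12 had a peak without doxycycline (32.4%, 18.0 to 49.8) and 22 at day 5 (59.5%, 42.1 to 75.2). NDUFA11 had 73 fragments in each library and NDUFA7 11 and 40. Of 33 assembly factors and small subunits of complexes III to V with other symbols, 12 (36.4%, 20.4 to 54.9) and 22 (66.7%, 48.2 to 82.0) had one. UQCC6, a factor of complex III assembly, had 14 and 31 fragments and CMC2, a factor of complex IV, 28 and 34. Within complexes II to V, 49 subunits had 7 (14.3%, 5.94 to 27.2) and 19 (38.8%, 25.2 to 53.8), the share without doxycycline being near that of all genes. The 13 assembly factors of complexes II and IV had 4 (30.8%, 9.09 to 61.4) and 10 (76.9%, 46.2 to 95). The intervals of all these pairs of groups overlapped in each library, which is not a test of equal shares.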

How the data were processed

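The peak lists of 2 Myc CUT&Tag libraries were used, grouped by the sample titles, and the remaining 22 samples were not analysed here. Trim Galore, Bowtie2, deepTools and MACS2 with build hg38 are named per the submitters' processing notes. For versions, settings and any control in peak calling: not given in the sources used here. Each list holds 10 columns with peaks of 1 library. The authors deposited per peak a score (the integer part of 10 times −log10 q), a fold (the ratio over local background at the summit), a −log10 p-value, a −log10 q-value and the summit offset. These values rank peaks within a list and were not compared between lists except where both are shown.

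Summit fragments n and background b were solved from fold = (n + 1)/(b + 1) and the Poisson tail above n, with a tolerance of 0.001 in −log10 p, which every peak on chromosomes 1 to 22, X and Y met. The recovery was tested on data simulated from these same formulas. That checks the solving step and cannot show that the deposited values follow the formulas. For a gene with several peaks the highest-ranked one by −log10 q counts. Gene spans come from RefSeq GRCh38.p14, the hg38 assembly, and strand and starts from its promoter table. Python 3.11.15, pandas 2.3.3 and scipy 1.17.1 were used. Where counts of fragments were compared, the ratio has an exact conditional binomial interval.

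The members, gene lists and motifs were chosen with earlier results of these data known. Every member is named. Full values go to the 10 with the highest-ranked day 5 peak, to members in only 1 list, to CYCS, CYC1, the 4 SDH subunits, the ATP5MC genes, COX4I1 and COX4I2. The promoters of COX17, ATP5ME and COX14, the values at inner starts and the values of SDHAF2 were added after values were seen. A planned printing of ATP5MC proteins was not made. Alternatives were other windows, ranks, equal numbers of peaks, summits, annotated starts and overlapping peaks. Leaving out the readthrough and asking that the gene's own end be nearest were chosen after seeing the data.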

Additional observations from a re-analysis of the deposited data

Results flagged for a closer look

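The mitochondrial genome lies outside the comparisons of nuclear genes and held peaks too, 5 in the library without doxycycline and 3 in the day 5 library. Of 6 mitochondrial genes for subunits of complexes III to V, the peaks overlapped COX1, COX3, ATP6 and CYTB without doxycycline and COX3, ATP6 and CYTB at day 5. Their deposited folds were 1.31 to 3.26 and 1.59 to 4.18, over local backgrounds of 445 to 1600 and 252 to 879 fragments. Nuclear peaks of the genes described above had backgrounds of a few fragments. No control library was used here, and the source of these fragments was not tested.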

How the results depend on the processing

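The median ratio of summit fragments was 1.6 and ran from 1.38 to 1.6 over 5 alternatives. The counts stayed within 1.5 times their values with a window of 500 bp, with summits within 1 kb, with annotated starts, with overlapping peaks and without the readthrough. With a window of 2500 bp only the count listed only without doxycycline changed by more, from 1 to 0. With the highest-ranked 50% of each list, 6 genes had a peak without doxycycline (9.23%, beside 8.02% of all coding genes). The count at day 5 was 17 (26.2%, beside 15.3%), and 6 genes were in both (9.23%, beside 6.88%). With equal numbers of peaks, 18 had one at day 5 (27.7%, beside 15.7%). Listed only at day 5 were then 9 (13.8%, beside 5.57%), and only without doxycycline 3 (4.62%, beside 4.3%). With the gene's own end nearest to the summit, a setting chosen after seeing the data, 7 had one without doxycycline, 20 at day 5 and 6 in both. That setting was not run over all coding genes. The first 2 of these settings take fewer peaks and the last drops peaks by construction. No paired analysis was possible because each condition has 1 library. The depth limits single genes: 5 to 15 fragments at genes listed only at day 5 leave Poisson intervals that reach from 1.62 to 24.7.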

Other observations

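The GC content of the promoter windows differed among these genes. Its median was 62.3% for the 11 genes in both lists, 67.3% for 15 listed only at day 5 and 57.7% for 24 in no list, beside 64.0%, 65.7% and 61% over all coding genes of the same classes.

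The symbol rule also matches 129 pseudogenes on the nuclear chromosomes. Of these, 0 had a peak within 1 kb without doxycycline and 1 at day 5, COX6B1P5, whose peak had 11 fragments and lay 101 bp from an end of POLN. Pseudogenes resemble the coding genes in sequence, and how reads that fit several copies were handled is not given in the sources used here.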
